A study of Mus musculus with 16 samples.

Results

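Manf, Cdnf, Fgf21, Gdf15 and Nupr1 were followed as 5 of the 25105 genes listed for islet cells under endoplasmic reticulum (ER) stress, chosen by symbol as secreted or stress-survival factors known from ER stress. Bulk polyA RNA-seq was done on dispersed primary islet cells from Grp78 flox/flox mice, in which Cre recombinase removes floxed sequence of Hspa5, the gene for the ER chaperone GRP78. All cells carried the floxed alleles, all were transduced with adenovirus, and the culture in 15 mM glucose lasted 72 hours in every group. The 4 groups were Ad-LacZ (control virus with the vehicle DMSO), Ad-Cre (the virus labelled knockdown, with DMSO), Ad-LacZ + JNK Inh and Ad-Cre + JNK Inh, where JNK Inh is JNK-IN-8, an inhibitor of all JNK kinases that was present from the start of the culture. The mice were adult. Each group held 4 libraries, 1 from each islet preparation (F1 and F2 female, M1 and M2 male), and each title joined 2 animal numbers, so a preparation may pool animals. The adenovirus is not restricted to beta cells, and a bulk library does not tell fewer cells of a type from less RNA per cell.

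MANF and its paralog CDNF are small proteins of the ER lumen that can be secreted, and MANF is known to support beta cell survival. FGF21 is a hormone that acts through FGF receptors together with the co-receptor beta-Klotho, and GDF15 is a distant member of the TGF-beta family whose known receptor is GFRAL with RET. NUPR1 is different from the others: it is a small chromatin-associated stress protein of the nucleus and is not a secreted factor. In the unfolded protein response, ATF6 and XBP1 raise genes of ER folding, while the PERK arm raises ATF4 and then CHOP (Ddit3). Fgf21, Gdf15 and Nupr1 are known as genes that ATF4 or CHOP can raise, and Manf as a gene of the folding arms.

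Of the 5 genes, 4 had a promoter in the RefSeq table of build GRCm38.p6, which gives 250 bases before and 50 bases after each start, and Manf had none there. The Nupr1 and Fgf21 promoters are shown because both hold the same 8 letters, TTGCATCA, while the RNA of these genes differed in the libraries described below. The capitals mark that match, which is the reverse complement of the ATF4 and C/EBP composite word TGATGNAA, and each sequence is printed on the strand of its gene. The Nupr1 promoter lies at chr7:126625421-126625720 on the minus strand, and the match is at bases -110 to -103 from the start, and the Fgf21 promoter at chr7:45615441-45615740 on the minus strand, with the match at bases -139 to -132.
Nupr1: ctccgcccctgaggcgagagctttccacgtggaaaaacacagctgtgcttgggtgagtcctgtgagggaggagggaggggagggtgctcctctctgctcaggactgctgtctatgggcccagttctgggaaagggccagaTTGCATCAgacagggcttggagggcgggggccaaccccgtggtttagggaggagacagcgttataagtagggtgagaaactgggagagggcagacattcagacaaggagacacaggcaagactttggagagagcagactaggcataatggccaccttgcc
Fgf21: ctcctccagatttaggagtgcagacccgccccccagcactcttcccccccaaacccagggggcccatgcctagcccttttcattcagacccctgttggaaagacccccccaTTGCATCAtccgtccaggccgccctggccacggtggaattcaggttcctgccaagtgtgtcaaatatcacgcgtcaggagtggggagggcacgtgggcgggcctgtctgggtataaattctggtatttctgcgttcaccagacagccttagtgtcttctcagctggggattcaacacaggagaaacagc
The Cdnf promoter (chr2:3512815-3513114, plus strand) also held a match of the composite word, with the letters TTTCATCA at bases -202 to -195. The pair of Gdf15 promoters listed held none of the words searched. On both strands, the composite word was in 3.969% of the 32851 promoters in the table. The other words searched were ERSE (CCAAT, 9 bases, CCACG), found in 0.119% of promoters, ERSE-II (ATTGG, 1 base, CCACG) in 0.037%, the UPR element TGACGTGG in 0.676%, and the AP-1 element TGAGTCA in 5.202%. None of these 4 was in a promoter of the 4 genes searched, and no matches overlapped. A match describes letters in a window and was not tested as a binding site.

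On GRCm38, with GENCODE M21 gene models, Manf spans chr9:106838312-106891979 on the minus strand, Cdnf chr2:3513030-3526376 on the plus strand, Fgf21 chr7:45613886-45615490, Gdf15 chr8:70629393-70632456 and Nupr1 chr7:126623249-126630861, the last 3 on the minus strand. Values are RPKM, reads per kilobase of gene and per megaread, as deposited. The exons counted add up to 3524 bases for Manf, 3111 for Cdnf, 951 for Fgf21, 1852 for Gdf15 and 2514 for Nupr1. RPKM is a level per length, so levels can be compared between genes.

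Depth was between 7.72 and 25.5 M (mega) reads per library. The shallowest was Ad-Cre + JNK Inh of preparation F2, the only library from another run and lane. Hspa5, the gene targeted by Ad-Cre, went against its label: it was at 395 to 483 RPKM in Ad-LacZ and 1107 to 1598 RPKM in the libraries labelled Ad-Cre, and likewise at 348 to 461 and 1202 to 1660 RPKM with JNK Inh. A value for the whole gene does not separate the floxed exons from the rest, so the groups are named here by their virus labels, and directions below are those between the labels. The endocrine label fitted its markers, with the 10 beta cell markers summing to 33368 RPKM or more in every library and the 6 alpha cell markers to 10984 RPKM or more. Of 12 acinar markers, Cela1 alone had a mean above 1 RPKM, and Prss2, for a trypsinogen, was at 0.048 RPKM or less. These sums are dominated by the hormone genes, and other beta cell markers were lower in Ad-Cre. From Ad-LacZ to Ad-Cre the mean went from 790 to 209 RPKM for G6pc2, from 270 to 75.0 for Ucn3, from 395 to 145 for Mafa and from 102 to 45.2 for Slc2a2. In limma all 10 had log2 differences below 0 and 2 were called lower, G6pc2 (-1.95) and Ucn3 (-2.10), and with JNK Inh these were called with Mafa and Slc2a2, 4 of 10. Non-endocrine markers also differed between groups. The 9 macrophage markers summed to 83.9 to 93.9 RPKM in Ad-LacZ, 86.0 to 243 in Ad-Cre, 158 to 349.5 in Ad-LacZ + JNK Inh and 197 to 334 in Ad-Cre + JNK Inh. The 8 stellate cell and fibroblast markers summed to 164 to 556, 177 to 1836, 165 to 1241 and 125 to 774 RPKM in the same order, the highest sum being that of Ad-Cre M2. The 6 duct markers summed to 199 to 334, 175 to 397, 448 to 969 and 294 to 408 RPKM, and the 6 endothelial markers to 21.0 to 39.7, 19.7 to 71.4, 19.7 to 35.5 and 22.0 to 64.6 RPKM. In limma 3 of 9 macrophage markers were called higher in Ad-Cre against Ad-LacZ, where 6.53% of all genes tested were called higher. For JNK Inh in Ad-LacZ 3 of 9 were also called higher, where 0.197% of genes were called in either direction. In both comparisons 0 duct, stellate or endothelial markers were called. With JNK Inh, 0 of 9 macrophage markers were called in Ad-Cre against Ad-LacZ. The part of these cell types in the results below was not tested, and the differences are also given by preparation. Without JNK Inh, the macrophage sum in Ad-LacZ and Ad-Cre was 85.4 and 86.0 RPKM in F1 and 93.9 and 107 in M1. It was 83.9 and 243 RPKM in M2 and 91.6 and 209 in F2. The stellate sum was 164 and 177 RPKM in F1 and 274 and 279 in M1. In M2 it was 556 and 1836 RPKM, and in F2 350 and 702 RPKM.

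Differences between groups are log2 differences of scaled RPKM with 1 added, fitted with limma on the 8 libraries of a comparison, and a gene was called at a Benjamini-Hochberg adjusted p under 0.05 over all genes tested. Because 1 was added, the change of the low genes is understated. The question of the first comparison was how expression differed after transduction with Ad-Cre. Manf, Gdf15 and Nupr1 rose in Ad-Cre, by 2.54, 3.32 and 2.16 times in mean RPKM, whereas Fgf21 and Cdnf stayed near 1 RPKM and were not called. Of the 5 genes, 4 passed the filter of 1 RPKM in 4 libraries, and 3 of these 4 were called higher and 0 lower, beside 6.53% of 11590 genes tested that were called higher and 8.32% called lower. The 3 called genes were above 1 RPKM in all 16 libraries, so the filter did not select them for their difference.

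Manf was by far the most abundant of the 5. In Ad-LacZ it was at 100.1, 105, 80.9 and 84.8 RPKM in F1, M1, M2 and F2, and in Ad-Cre at 217, 212, 227 and 287 RPKM in the same order. All 4 libraries labelled Ad-Cre lay above all those labelled Ad-LacZ, and the mean was 92.7 ± 11.7 RPKM in Ad-LacZ and 236 ± 34.8 in Ad-Cre (SD, n = 4 each). Its log2 difference was 1.33 (SE 0.17, adjusted p = 0.00285), with an exact two-sided permutation p of 0.0286, the smallest that 4 against 4 libraries allow. Here and below, the permutation treats libraries as independent and does not keep those of a preparation paired. By mean RPKM, Manf ranked 346th of 25105 genes in Ad-LacZ and 128th in Ad-Cre. By preparation the ratio of Ad-Cre to Ad-LacZ was 2.16 (F1), 2.01 (M1), 2.81 (M2) and 3.38 (F2), above 1 in each preparation.

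Gdf15, at a lower level, rose by a like factor. Its RPKM was 3.50, 2.85, 5.73 and 1.69 in F1, M1, M2 and F2 with Ad-LacZ, and 9.65, 8.11, 15.6 and 12.3 with Ad-Cre. The groups did not overlap, although the Ad-LacZ libraries themselves spread over a wide range, with a coefficient of variation of 49.3% against 12.6% for Manf. The mean was 3.44 ± 1.70 RPKM in Ad-LacZ and 11.4 ± 3.29 in Ad-Cre (SD, n = 4 each), and the log2 difference was 1.52 (SE 0.23, adjusted p = 0.00557; exact permutation p = 0.0286). The ratio was near 2.7 to 2.8 in F1, M1 and M2, with values of 2.75, 2.84 and 2.73, but it reached 7.27 in F2, the preparation with the lowest Gdf15 in Ad-LacZ.

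Nupr1 was at 8.12, 9.85, 9.30 and 14.9 RPKM in F1, M1, M2 and F2 with Ad-LacZ, and at 17.0, 15.9, 25.7 and 32.4 RPKM with Ad-Cre. Here the gap was narrow, since the highest Ad-LacZ library (F2) came within about 1 RPKM of the lowest Ad-Cre library (M1). The mean was 10.5 ± 2.99 RPKM in Ad-LacZ and 22.7 ± 7.77 in Ad-Cre (SD, n = 4 each). The log2 difference was 1.02 (SE 0.21, adjusted p = 0.0165; exact permutation p = 0.0286). Leaving out F1, M1, M2 or F2 gave an adjusted p of 0.0710, 0.0618, 0.0630 and 0.0308, with a log2 difference of 0.91 to 1.13. All 3 called genes were thus free of overlap between the groups, as were 10.3% of genes tested in the higher direction.

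Fgf21 stayed low in every group. It was at 1.04, 1.61, 1.28 and 0.920 RPKM in F1, M1, M2 and F2 with Ad-LacZ, and at 0.442, 0.838, 1.17 and 1.43 RPKM with Ad-Cre. The groups overlapped, and F2 moved against the other 3 preparations. Each value rested on 6 to 32 reads, so the 95% Poisson interval of the lowest library, Ad-Cre F1 with 6 reads, ran from 0.162 to 0.963 RPKM, and such intervals cover counting error only. limma gave a log2 difference of -0.19 (SE 0.16, 95% interval -0.56 to 0.17, adjusted p = 0.446). A level 2 times the Ad-LacZ mean would be a difference of 0.63 on this scale, which lies outside the interval.

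Cdnf, the paralog of Manf, was under the filter and was tested singly. It was at 0.806, 0.757, 0.811 and 1.02 RPKM in F1, M1, M2 and F2 with Ad-LacZ, and at 0.361, 0.742, 0.788 and 0.712 with Ad-Cre. The values overlapped, with 16 to 69 reads a library over both groups, and the log2 means were 0.88 in Ad-LacZ and 0.71 in Ad-Cre (exact permutation p = 0.0857). Cdnf was therefore not seen to rise with its paralog, and its level in Ad-LacZ was 0.849 ± 0.118 RPKM (SD, n = 4) where that of Manf was 92.7 RPKM.

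**Figure D1:**
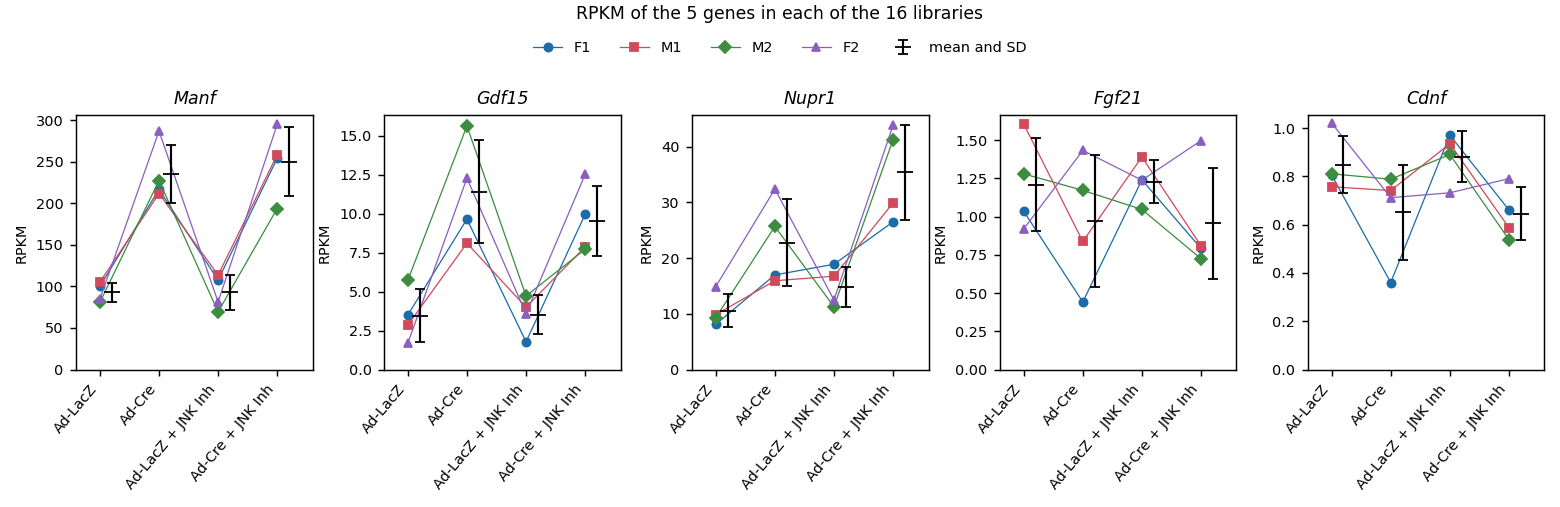
RPKM (linear axes from 0) of Manf, Gdf15, Nupr1, Fgf21 and Cdnf in the 16 libraries, by group, with each coloured line joining the 4 libraries of 1 preparation and black bars giving the mean and SD (n = 4). Manf, Gdf15 and Nupr1 lay higher in both groups labelled Ad-Cre, from 212, 8.11 and 15.9 RPKM upward in Ad-Cre, whereas Fgf21 and Cdnf overlapped between all groups compared, and Nupr1 was highest with Ad-Cre + JNK Inh.

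The second comparison put the same question to cells cultured with JNK Inh. Manf, Gdf15 and Nupr1 again rose, by 2.69, 2.70 and 2.38 times in mean RPKM, and Fgf21 and Cdnf did not pass the test. Of 4 genes that passed the filter, 3 were called higher and 0 lower, beside 9.92% of 11598 genes called higher and 10.2% called lower (1151 and 1183 genes, or 950 and 2106 in RPKM as deposited). All 3 were without overlap between the groups, as were 11.4% of genes in the higher direction.

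Manf was at 108, 114, 69.4 and 81.3 RPKM in F1, M1, M2 and F2 with Ad-LacZ + JNK Inh, and at 254, 258, 194 and 295 RPKM with Ad-Cre + JNK Inh. The means were 93.0 ± 21.1 and 250.2 ± 41.9 RPKM (SD, n = 4 each), and M2 gave the lowest value in both groups. This gave a log2 difference of 1.57 (SE 0.26, adjusted p = 0.00438; 0.0662 without F2).

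Gdf15 was at 1.78, 4.00, 4.72 and 3.58 RPKM in F1, M1, M2 and F2 with Ad-LacZ + JNK Inh, and at 9.95, 7.87, 7.71 and 12.5 RPKM with Ad-Cre + JNK Inh. The groups were apart, with means of 3.52 ± 1.25 and 9.51 ± 2.24 RPKM, but the preparations differed in the size of the rise, from 1.63 times in M2 to 5.58 times in F1. The log2 difference was 1.37 (SE 0.20, adjusted p = 0.00283).

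Nupr1 was at 18.9, 16.7, 11.3 and 12.5 RPKM in F1, M1, M2 and F2 with Ad-LacZ + JNK Inh, and at 26.5, 29.9, 41.3 and 43.8 RPKM with Ad-Cre + JNK Inh. The preparations that were highest with Ad-LacZ + JNK Inh, F1 and M1, were the lowest with Ad-Cre + JNK Inh. The ratio was accordingly 1.40 in F1 and 1.78 in M1 against 3.66 in M2 and 3.51 in F2. In limma it was 1.33 (SE 0.24, adjusted p = 0.00627) on the log2 scale, and the adjusted p was 0.0531 without M1 and 0.0789 without F2.

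Fgf21 was at 1.24, 1.39, 1.05 and 1.24 RPKM in F1, M1, M2 and F2 with Ad-LacZ + JNK Inh, and at 0.793, 0.810, 0.725 and 1.50 RPKM with Ad-Cre + JNK Inh. Its highest value came from the shallow library of F2, with 11 reads and a 95% Poisson interval of 0.748 to 2.68 RPKM. For Fgf21 limma gave -0.14 (95% interval -0.46 to 0.19, adjusted p = 0.538). Cdnf was at 0.971, 0.935, 0.891 and 0.732 RPKM with Ad-LacZ + JNK Inh and at 0.661, 0.588, 0.538 and 0.791 RPKM with Ad-Cre + JNK Inh, again with 1 preparation, F2, against the other 3 (exact permutation p = 0.229).

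The remaining comparisons asked what JNK Inh did with a given virus. In the libraries labelled Ad-Cre, 0 of the 3 genes that passed the filter were called, beside 0.0174% of 11503 genes called in either direction, which is 2 genes (at an unadjusted p under 0.05, 601 were higher and 327 lower, and in RPKM as deposited 314 were higher and 1289 lower). Nupr1 was the exception in size: its mean was 22.7 RPKM without and 35.4 ± 8.47 RPKM with JNK Inh, and it was higher with JNK Inh in 4 of 4 preparations, by 1.35 to 1.88 times. The log2 difference was 0.79 (SE 0.20, unadjusted p = 0.00398, adjusted p = 0.317; exact permutation p = 0.0286). With the preparation as a replicate block, the adjusted p was 0.0181, and 4.21% of genes were then called higher. After scaling the groups did not overlap, as for 3.27% of genes in the higher direction, but in RPKM as deposited the Ad-Cre library of F2, at 32.4 RPKM, lay above F1 and M1 with JNK Inh. The macrophage sums given above were higher with JNK Inh in each preparation as well. Of the 9 macrophage markers, 5 had log2 differences below 0 and 0 were called, while the mean of Lyz2 went from 66.4 to 147 RPKM. The alpha, delta, PP and duct cell sums were likewise higher with JNK Inh in 4 of 4 preparations, those of delta cells by 1.38 to 2.75 times and of alpha cells by 1.04 to 2.04 times, and the stellate sum was lower in 4 of 4. The part of these cell types in the Nupr1 difference was not tested.

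Manf and Gdf15 were not called in this comparison. Manf had a log2 difference of 0.23 (95% interval -0.19 to 0.65, adjusted p = 0.824) and Gdf15 of -0.09 (95% interval -0.50 to 0.32, adjusted p = 0.954). For Gdf15 this was a small difference in 3 preparations and a lower value with JNK Inh in M2, where it went from 15.6 to 7.71 RPKM. Fgf21 and Cdnf were under the filter, with log2 means of 0.91 and 0.68 without and 0.98 and 0.74 with JNK Inh, and exact permutation p of 0.714 and 0.571.

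With Ad-LacZ, JNK Inh changed no member by the test. Of 4 genes tested 0 were called, beside 0.197% of 11657 genes called in either direction, and 0 had an unadjusted p under 0.05. Nupr1 had the widest difference, 0.46 (95% interval -0.11 to 1.04, adjusted p = 0.941). It was 2.33 times as high with JNK Inh in F1, 1.70 times in M1 and 1.21 times in M2, and 0.839 times in F2. For Manf the log2 difference was -0.02, for Gdf15 0.05 and for Fgf21 0.02, all with an adjusted p of 0.999. Cdnf had log2 means of 0.89 without and 0.92 with JNK Inh (exact permutation p = 0.771). The macrophage, duct and stellate sums were higher with JNK Inh in 4 of 4 preparations, those of macrophages by 1.85 to 4.08 times. The beta cell and PP cell sums were lower in 4 of 4. The part of these cell types was not tested.

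Whether the difference between the viruses itself depended on JNK Inh was asked with the interaction over all 16 libraries. limma called 0% of 12274 genes, with 230 above and 166 below at an unadjusted p under 0.05, a split that was 103 above and 390 below in RPKM as deposited. Among the 5 genes, the interaction was 0.25 for Manf (95% interval -0.42 to 0.92), -0.13 for Gdf15 (-0.84 to 0.57), 0.33 for Nupr1 (-0.39 to 1.05) and 0.06 for Fgf21 (-0.41 to 0.53), each with an adjusted p above 0.999, and Cdnf was under the filter. These intervals come from the fit without the replicate block, and differences in response within them remain possible. With the block, 684 genes were above and 742 below at an unadjusted p under 0.05, and 0 were called.

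**Figure D2:**
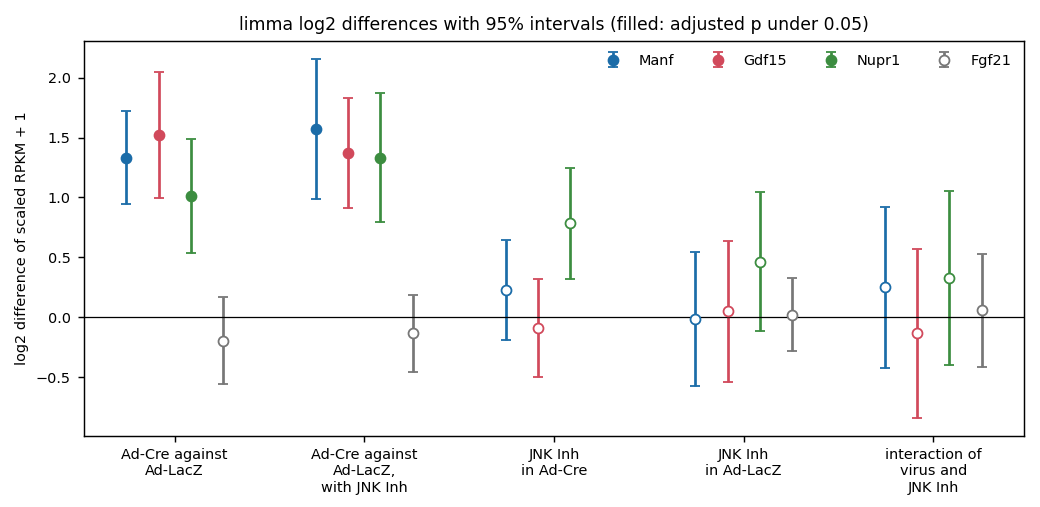
limma log2 differences of scaled RPKM + 1 with 95% intervals for the genes that passed the filter in each comparison, n = 4 libraries a group, with filled points for an adjusted p under 0.05. Manf, Gdf15 and Nupr1 lie between 1.02 and 1.57 in both comparisons of the viruses, and no point is filled for JNK Inh or the interaction. Fgf21 has no point for JNK Inh in Ad-Cre, where it was under the filter.

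In order of mean level, Manf and Nupr1 had the same sequence of groups: Ad-Cre + JNK Inh, Ad-Cre, Ad-LacZ + JNK Inh, Ad-LacZ. For Manf the first pair, 250.2 and 236 RPKM, and the last pair, 93.0 and 92.7 RPKM, differed by less than 1 SD. For Nupr1 the step from 35.4 to 22.7 RPKM exceeded 1 SD of either group and was called with the replicate block only, and the step from 14.8 to 10.5 RPKM was not called. Gdf15 was highest in Ad-Cre, then in Ad-Cre + JNK Inh, Ad-LacZ + JNK Inh and Ad-LacZ, and neighbours within a virus differed by less than 1 SD. Fgf21 (0.956 to 1.23 RPKM) and Cdnf (0.644 to 0.882 RPKM) were highest in Ad-LacZ + JNK Inh and lowest in Ad-Cre + JNK Inh, with no called step.

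The annotated span of Manf contains another gene on the same strand, Rbm15b, which encodes an RNA-binding protein of the m6A methylation machinery (chr9:106880918-106887428). Rbm15b moved with Manf. It was at 5.61 to 7.48 RPKM in Ad-LacZ and 22.7 to 30.1 in Ad-Cre, and at 5.47 to 6.74 and 14.8 to 32.2 RPKM with JNK Inh. In log2 terms Rbm15b differed by 1.77 (SE 0.16, adjusted p = 0.000983) without and 1.88 (SE 0.23, adjusted p = 0.00109) with JNK Inh. Its RPKM was 6.62% to 8.95% of that of Manf in Ad-LacZ and 9.99% to 13.1% in Ad-Cre, so these ranges did not overlap, whereas with JNK Inh they did (5.09% to 9.30% and 7.66% to 11.0%). Only 14 exon bases belong to both genes. How reads from transcripts that run on past Manf were divided cannot be read from values per gene, and this was not tested.

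On the opposite strand, Dcaf1 shares 146 exon bases and the antisense gene 4930524O07Rik 166 exon bases with Manf. Dcaf1, a component of a ubiquitin ligase, was at 9.32 to 10.1 RPKM in Ad-LacZ and 7.81 to 8.43 in Ad-Cre, well under Manf, and was not called (log2 difference -0.22, adjusted p = 0.178). Whether counting used strand is not given in the sources used here. No other member overlapped an annotated gene. Within 10 kb of the 5 genes, 7 other genes were listed and 4 were tested, of which 1, Rbm15b, was called in either comparison of the viruses.

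**Figure D3:**
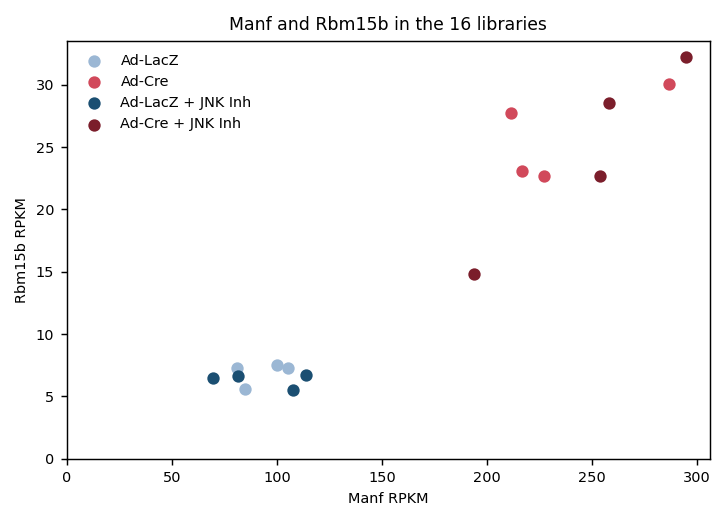
RPKM of Manf (x axis) and of the overlapping gene Rbm15b (y axis), 1 point per library (16 libraries), coloured by group. The libraries labelled Ad-LacZ sit at 5.47 to 7.48 RPKM of Rbm15b with or without JNK Inh, and those labelled Ad-Cre at 14.8 to 32.2.

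Related genes were counted in lists written from general knowledge, with earlier results of these data known. Some genes were in more than 1 list. For counts with the replicate block, 1859 of 11590 genes were called higher and 2065 lower in Ad-Cre against Ad-LacZ. With JNK Inh these numbers were 1459 and 1392 of 11598. Of 15 ATF6 target genes, 14 were called higher and 0 lower in Ad-Cre against Ad-LacZ, with a median log2 difference of 1.69 beside -0.0033 over all genes tested, and Canx, the gene for calnexin, missed the threshold (0.47, adjusted p = 0.0510) but was called with the replicate block (adjusted p = 0.0155). The smallest p-values were those of Derl3, for a protein of ER-associated degradation (log2 difference 4.93), Creld2, for a secreted ER protein (3.58), Pdia4, for a disulfide isomerase (3.00), and Herpud1, for another degradation factor (2.42). With JNK Inh all 15 were called higher, with a median of 2.14 beside -0.024. The differences of Manf, 1.33 and 1.57, thus lay below the list's median in both comparisons.

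The targets of ATF4 and CHOP moved less as a list. Of 30, 6 were called higher and 0 lower in Ad-Cre against Ad-LacZ, with a median of 0.29, while 11 were higher with the replicate block and 2 without F2. The smallest p-values belonged to Ddit3, for CHOP (2.52), and Ppp1r15a, for the GADD34 phosphatase subunit (1.34). Also among these 4 were Atf3, for a transcription factor (1.31), and Trib3, for a pseudokinase (1.34). Gdf15 (1.52) and Nupr1 (1.02) lay above the list's median of 0.29, and Fgf21 (-0.19) below it. Beside the 4 genes, which were picked for their p-values, Gdf15 lay within their range and Nupr1 under it. With JNK Inh, 7 of 30 were called higher and 1 lower, Cth, for a cysteine synthesis enzyme (-0.59, adjusted p = 0.0242), with a median of 0.17, and 3 were higher without M1, 11 without M2 and 2 without F2. Another scaling changed the lower calls, to 7 higher and 5 lower after quantile normalization (median 0.049) and 7 higher and 3 lower in RPKM as deposited (median 0.054).

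Among 16 known regulators of these genes, 15 were tested and 7 were called higher and 0 lower in Ad-Cre, with a median of 0.47. Ddit3 led, followed by Egr1, for an early-response factor (0.83), by Atf3, and by Eif2ak3, for the kinase PERK (0.60), and Atf4 was called at 0.66 (adjusted p = 0.0439). With JNK Inh 5 of 14 were called higher and 0 lower. Ddit3 then differed by 2.72, while Atf4 was not called (0.72, adjusted p = 0.0551). Leaving out F1, M1, M2 or F2 gave counts of 4, 3, 5 and 2, and with JNK Inh of 3, 2, 7 and 1.

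Other secreted stress factors were mixed. Of 12, 6 were tested in Ad-Cre against Ad-LacZ, and 2 were called higher, namely Creld2 and Metrnl, for the cytokine meteorin-like (0.97, adjusted p = 0.0299). Adm2, for the peptide intermedin, was called lower (-0.58, adjusted p = 0.0489), and Mydgf, for myeloid-derived growth factor, had 0.49 (adjusted p = 0.151). With the replicate block 4 were higher and 1 lower. Leaving out F1, M1, M2 or F2 gave 1, 1, 2 and 1 higher, and 0 lower each time. Likewise 0 were lower without a filter, with the filter at 0.1 RPKM and in 1 fit over all 16 libraries. With JNK Inh 2 of 8 were called higher, again Creld2 (4.19) and Metrnl (0.80), and 0 lower, and leaving out the same preparations gave 1, 1, 3 and 1.

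MANF carries a C-terminal signal that KDEL receptors recognise, and of the 3 receptor genes Kdelr3 was called higher in both comparisons (1.54 and 1.92). Kdelr2 had 0.47 and 0.55 (adjusted p = 0.0597 and 0.0738) and Kdelr1 0.20 and 0.47 (adjusted p = 0.527 and 0.228). With the replicate block 2 of 3 were called in each, where the block called 1859 of 11590 and 1459 of 11598 genes higher. For receptors at the receiving cell, 4 of 8 genes were tested and 0 called in either comparison by limma (unadjusted p under 0.05 for 0 without and 2 with JNK Inh, and 1 called higher in each with the replicate block, Klb). Nptn, proposed as a MANF receptor, had -0.16 and -0.35, Klb, for beta-Klotho, 0.31 and 0.65, Fgfr1 0.30 and 0.04, and Ret -0.03 and -0.27. Gfral, the GDF15 receptor, was at 0.042 RPKM or less in every library. Of 14 family relatives, 13 were listed and 4 tested, and 0 were called in either comparison (0 at an unadjusted p under 0.05 in either, and with the replicate block 2 higher without and 0 with JNK Inh). Tgfb1, Tgfb2 and Tgfb3, which encode cytokines of the wider family of GDF15, had 0.44, 0.16 and 0.51 without and -0.44, -0.22 and -0.25 with JNK Inh, and Inhba, for an activin subunit, had -0.01 and -0.55.

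**Figure D4:**
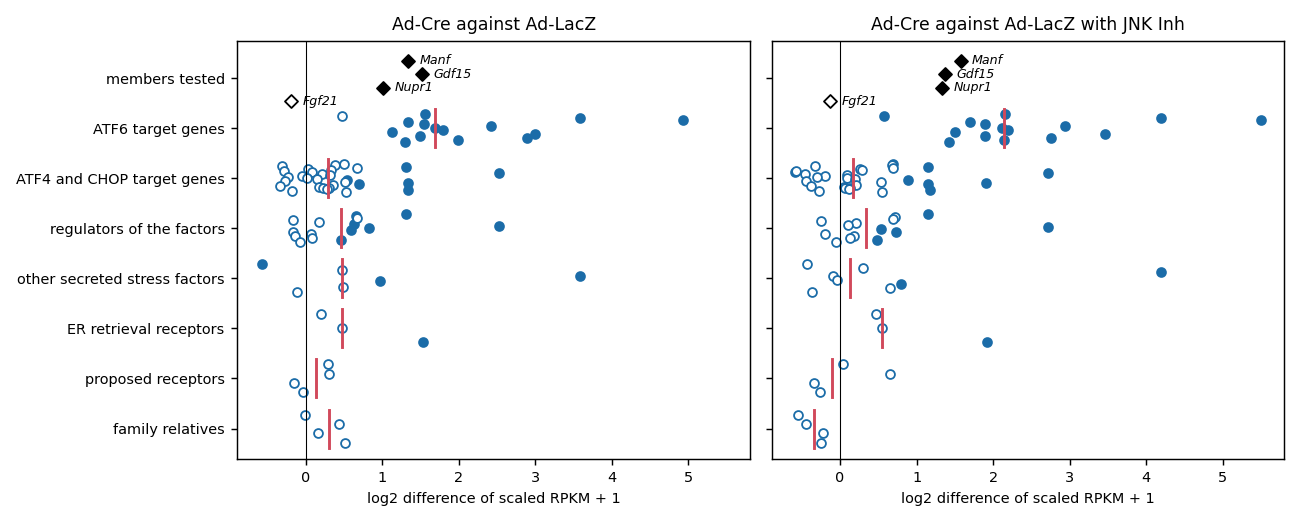
limma log2 differences of scaled RPKM + 1 for the tested genes of 7 lists (circles, filled at an adjusted p under 0.05, red bar at the list median) and for the tested members (black diamonds, filled likewise), without JNK Inh on the left and with JNK Inh on the right. The ATF6 target genes have medians of 1.69 and 2.14, and the ATF4 and CHOP target genes 0.29 and 0.17.

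In limma without the replicate block, JNK Inh left all 7 lists with no called gene in either virus group. At an unadjusted p under 0.05, 7 list genes were higher and 2 lower of 75 tested in Ad-Cre, of which 6 were ATF6 targets, and 4 were higher and 3 lower of 76 in Ad-LacZ. The ATF6 targets had a median log2 difference of 0.44 for JNK Inh in Ad-Cre, beside -0.018 over all genes tested. That median was 0.29 in RPKM as deposited, with 14 of 15 above 0, and 0.026 after quantile normalization, with 8 of 15 above 0. With the replicate block, in which 4.21% of all genes were higher and 2.2% lower for JNK Inh in Ad-Cre, 5 of 15 ATF6 targets and 3 of 30 ATF4 and CHOP targets were called higher and 0 lower. Among the regulators, Ddit3 was then called higher (0.46, adjusted p = 0.0253) and Jun, itself a target gene of the JNK pathway, lower (-0.96, adjusted p = 0.0106). The mean of Jun went from 21.9 to 9.57 RPKM with JNK Inh in Ad-Cre, and likewise from 20.8 to 9.68 RPKM in Ad-LacZ. Among the relatives Tgfb2 and Tgfb3 were lower in Ad-Cre (-0.73 and -0.60).

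The genes most like each member over the 16 libraries were named by Pearson's r of scaled log2 values, as a description in which all points share libraries and the groups themselves lie apart. For Manf they were Hspa5 (r = 0.991), Pdia6 (0.989), Alg12 (0.989), Dnajb11 (0.988) and Hyou1 (0.987), of which Pdia6, Dnajb11 and Hyou1 are also on the ATF6 list. For Gdf15 they were Rrp9 (0.962), Smyd5 (0.950), Pygb (0.949), Ppp1r13l (0.948) and Mafk (0.944). For Nupr1 they were Nucb2 (0.950), Cgref1 (0.944), Rpl22 (0.942), Chmp4b (0.942) and Tars (0.941). The low genes had weaker partners, from 0.697 to 0.769 for Fgf21 (Ngly1, Slc10a7, Abhd17c, Vapa and Vezt) and from 0.765 to 0.808 for Cdnf (Zbtb25, Ergic2, Osgin2, Tmem67 and Lipo3).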

How the data were processed

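PolyA RNA was sequenced in 16 libraries of dispersed mouse islet cells, and the authors deposited RPKM per gene in 1 table. The submitters' processing notes name the build GRCm38, and the aligner settings, strand and annotation behind the RPKM are not given in the sources used here. A further 3 columns that match no label were not used. The low values of 2117 of 2117 genes tried were whole reads (tolerance 0.02), which gave the depth, 7.72 to 25.5 M (mega) reads, and exon lengths equal to GENCODE M21. Libraries were grouped by their labels. RPKM was scaled by TMM factors computed on RPKM (trims of 30% and 5%), genes above 1 RPKM in at least 4 libraries were kept, 1 was added before taking log2, and each comparison was run in limma 3.58.1 (empirical Bayes, mean-variance trend on) under R 4.3.3. The script was tested on simulated data. Members under the filter had an exact two-sided permutation test, which did not keep the libraries of a preparation paired. Tables and plots used Python 3.11.15, numpy 2.4.6 and pandas 2.3.3.

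Same-numbered libraries were parallel cultures of 1 preparation, and their residual correlation was 0.131 to 0.826 over the 4 comparisons. Other pairs ranged from -0.713 to 0.623. Residuals were taken from group means, which by itself lowers the other pairs where same pairs are positive. The study treats the preparations as biological replicates. The members and lists were chosen with earlier results of these data known. Named genes were the members, up to 4 genes of smallest p per list, and the 5 genes most correlated with each member. Rbm15b, Dcaf1, 4930524O07Rik, Canx, Cth, Atf4, Jun, Prss2, Gfral, G6pc2, Ucn3, Mafa and Slc2a2 were named after their values were seen. Alternatives were another pseudocount, filter, scaling, sample set, replicate block, no trend, and each preparation left out.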

Additional observations from a re-analysis of the deposited data

Results flagged for a closer look

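Within the Ad-Cre + JNK Inh group, the Fgf21 value of preparation F2 stood far from the other 3, at 1.50 RPKM against 0.725 to 0.810 RPKM, a gap of 0.891 of the range of the group where 0.829 is the 95% critical value for 4 samples. That library was the shallowest, at 7.72 M (mega) reads, and the value rested on 11 reads. It was the only such value among 20 groups of 4 libraries, of which chance alone flags about 1 in 20.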

How the results depend on the processing

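Of 284 values of the 5 genes under alternative settings, 259 kept their direction and their side of the threshold. Most of the 284 belong to differences not called in the main setting. For members under the filter, the permutation p cannot fall under 0.05 with a preparation left out, so those values could not become called. Manf, Gdf15 and Nupr1 stayed higher in Ad-Cre against Ad-LacZ and in the same comparison with JNK Inh under every setting, with log2 differences of 1.12 to 1.69, 1.15 to 1.78 and 0.91 to 1.61, and they stayed called except when some preparations were left out. With 1 library set left out, the difference of Nupr1 was 0.91 to 1.13 (adjusted p up to 0.0710) in Ad-Cre against Ad-LacZ and 1.10 to 1.61 (up to 0.0789) with JNK Inh, and that of Manf with JNK Inh 1.44 to 1.69 (up to 0.0662). The cause was not tested.

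With the replicate block, Nupr1 for JNK Inh in Ad-Cre kept a log2 difference of 0.79 and became called, and no other call on the 5 genes changed. The block raised the genes called in Ad-Cre against Ad-LacZ from 1721 to 3924, for JNK Inh in Ad-Cre from 2 to 737 and for JNK Inh in Ad-LacZ from 23 to 39.

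Directions turned only for differences near 0 that were not called. Quantile normalization gave -0.047 for Manf with JNK Inh in Ad-Cre, and -0.041 for Cdnf and -0.031 for Fgf21 with JNK Inh in Ad-LacZ, while RPKM as deposited gave -0.00085 for Fgf21 with JNK Inh in Ad-Cre and -0.021 for its interaction. Leaving out libraries for JNK Inh in Ad-Cre gave -0.030 to 0.12 for Cdnf, -0.032 to 0.17 for Fgf21 and -0.19 to 0.11 for Gdf15. For JNK Inh in Ad-LacZ it gave -0.099 to 0.062 for Manf, -0.025 to 0.14 for Cdnf, -0.042 to 0.085 for Fgf21 and -0.15 to 0.28 for Gdf15, and for the interaction -0.049 to 0.088 for Fgf21. The cause was not tested.

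Without 1 library set, 165 to 902 genes were called in Ad-Cre against Ad-LacZ, 261 to 3158 with JNK Inh (2334 with all libraries), 0 for JNK Inh in Ad-Cre and 1 to 3 for JNK Inh in Ad-LacZ. One fit over all 16 libraries called 3558 genes in the comparison with JNK Inh, 59 for JNK Inh in Ad-Cre and 10 in Ad-LacZ. For JNK Inh in Ad-Cre, 0 genes were called without a filter, with the filter at 0.1 RPKM, on unscaled RPKM, after quantile normalization and in eBayes with no trend. For JNK Inh in Ad-LacZ no filter called 6, a filter at 0.1 RPKM 12 and RPKM as deposited 7. Quantile normalization called 1 gene in the interaction. RPKM as deposited put the median log2 difference of all genes at -0.14 in Ad-Cre against Ad-LacZ with JNK Inh and in JNK Inh in Ad-Cre, and at -0.12 in the interaction. Counting limits the low genes, with 6 to 32 reads a library for Fgf21 and 16 to 69 for Cdnf.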
